A study of Mus musculus with 18 samples.

Results

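The imprinted growth genes were Igf2, Igf2r, H19, Cdkn1c, Dlk1, Meg3, Peg3, Snrpn, Grb10 and Mest. Their members were all array probes that the platform annotation assigns to one of these 10 symbols. The annotation named 16 probes for 8 of them, out of 46632 probes and 17711 named genes on the array. H19 and Meg3 had no probe under their symbol and are not analysed here. Of the 16 probes, 15 entered the tests because some group had them detected on both of its arrays. The other, Mest probe ILMN_1249019, was not detected on any of the 18 arrays. Igf2, Igf2r and Cdkn1c had 1 probe each, Dlk1 and Snrpn had 2, Peg3 had 3, Grb10 had 4 and Mest had 1 that was tested. In the RefSeq annotation Igf2, Cdkn1c, Peg3 and Snrpn lie on mouse chromosome 7, Dlk1 on 12, Grb10 on 11, Igf2r on 17 and Mest on 6.

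Total RNA of mouse embryonic stem cells was measured on Illumina BeadChips (Sentrix Mouse-6 v1.1), with 9 groups of 2 arrays. All cells carried the CGR8 cell line label and the strain label 129P2/Ola. In 3 groups CGR8 cells were sampled on days 0, 1 and 3 after removal of leukaemia inhibitory factor (LIF), the cytokine that keeps them undifferentiated. In another 3 groups the same days were sampled with cyclosporin A (CsA), which inhibits the phosphatase calcineurin. The last 3 groups were ideltaCnAES cells, in which removing tetracycline (Tc) induces deltaCnA, a form of the calcineurin A subunit, on days 0, 1 and 4. The sources used here do not give how long the day 0 cells of the CsA course had been in CsA, the LIF supply of the ideltaCnAES cells or the number of clones they represent. The labels do not say whether the 2 arrays of a group came from separate cultures, so the p-values reflect no more than array-to-array spread, which may be technical. No array stood apart from its pair, with correlations of 0.991 to 0.995 within groups.

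Imprinted genes are transcribed mainly from 1 of the 2 parental copies, which is set by DNA methylation placed in the germ line. Many of them act on growth of the embryo and placenta, the paternally expressed ones often promoting it and the maternally expressed ones often restraining it. IGF2 is a paternally expressed growth factor, and IGF2R is a maternally expressed receptor that carries IGF2 to lysosomes for breakdown. An array reads both parental copies together, so a changed level does not say which copy was transcribed. Calcineurin acts on NFAT transcription factors, which bind a short core sequence, GGAAA.

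The upstream sequences of Igf2, Dlk1 and Peg3 are shown because their day 3 responses to LIF removal were the ones most separated by CsA. Each line holds the 250 bases before a RefSeq transcript start on build GRCm38.p6, 5′ to 3′ on the gene's strand, with GGAAA and its reverse complement TTTCC in capitals. Igf2 has 4 windows.
Igf2 window 1, chr7:142666817-142667066, minus strand: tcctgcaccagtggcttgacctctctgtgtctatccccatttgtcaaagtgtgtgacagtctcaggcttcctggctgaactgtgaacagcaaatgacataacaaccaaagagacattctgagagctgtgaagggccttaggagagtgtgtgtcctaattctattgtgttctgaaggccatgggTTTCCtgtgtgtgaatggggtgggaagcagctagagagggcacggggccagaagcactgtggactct
Igf2 window 2, chr7:142661272-142661521, minus strand: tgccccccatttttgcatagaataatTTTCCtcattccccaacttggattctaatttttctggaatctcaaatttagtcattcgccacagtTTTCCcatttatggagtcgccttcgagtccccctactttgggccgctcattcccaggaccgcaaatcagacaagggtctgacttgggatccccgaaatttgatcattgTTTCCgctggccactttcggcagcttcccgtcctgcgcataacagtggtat
Igf2 window 3, chr7:142658805-142659054, minus strand: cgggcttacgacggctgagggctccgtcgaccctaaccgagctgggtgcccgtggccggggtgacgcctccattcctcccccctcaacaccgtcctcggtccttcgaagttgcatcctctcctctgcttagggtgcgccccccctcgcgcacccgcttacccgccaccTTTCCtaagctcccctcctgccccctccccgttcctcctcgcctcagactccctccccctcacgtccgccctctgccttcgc
Igf2 window 4, chr7:142657497-142657746, minus strand: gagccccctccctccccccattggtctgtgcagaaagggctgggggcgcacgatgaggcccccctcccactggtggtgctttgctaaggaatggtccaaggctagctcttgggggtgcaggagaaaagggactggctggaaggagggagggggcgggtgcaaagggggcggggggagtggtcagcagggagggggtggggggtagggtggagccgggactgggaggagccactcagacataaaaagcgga
Dlk1 window 1, chr12:109452573-109452822, plus strand: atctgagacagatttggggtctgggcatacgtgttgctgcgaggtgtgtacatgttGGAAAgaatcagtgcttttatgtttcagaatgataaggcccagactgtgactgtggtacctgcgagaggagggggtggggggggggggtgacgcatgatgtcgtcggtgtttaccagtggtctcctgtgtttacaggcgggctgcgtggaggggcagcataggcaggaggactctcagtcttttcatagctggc
Peg3 window 1, chr7:6730420-6730669, minus strand: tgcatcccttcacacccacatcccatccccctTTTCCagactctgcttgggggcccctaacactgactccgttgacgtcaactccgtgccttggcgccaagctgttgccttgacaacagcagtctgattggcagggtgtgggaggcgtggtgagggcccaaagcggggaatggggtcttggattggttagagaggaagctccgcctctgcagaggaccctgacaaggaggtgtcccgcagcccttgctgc
Igf2 windows 1, 2 and 3 held 1, 3 and 1 matches and window 4 held none, while the Dlk1 and Peg3 windows held 1 each. RefSeq windows were found for 8 of the 10 genes, and 12 of their 18 windows held a match. These include 2 windows of Meg3, which had no probe, both with a match. Mest windows 2 and 3, which start at 30737800 and 30737803, overlap and hold the same 2 matches. Among all 32841 windows of this length in the table, 55.58% held at least 1 match on either strand. The core is short and frequent, and a match is a description of the sequence, not of binding.

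The stem cell label was checked on marker genes. All 6 listed stem cell markers (Pou5f1, Sox2, Nanog, Zfp42, Esrrb and Tdgf1) were detected on both CGR8 day 0 arrays. Their summed linear level was 35262.7 to 35371.2 on day 0, 15146.3 to 16650.6 on day 3 without LIF and 28662.7 to 28906.9 on day 3 with CsA. It was 36132.9 to 40079.4 before and 38174.9 to 41854.8 on day 4 of deltaCnA induction. Of the 6 markers 4 fell and none rose on day 3 without LIF, and 3 fell and none rose with CsA. None was called on day 4 of deltaCnA induction. The mean log2 level of Pou5f1 was 12.83 on day 0 and 12.74 on day 3 without LIF. Markers of other cell types moved in the same samples. On day 3 without LIF the sums were 484.9 to 525.4 for the 5 measured of 7 primitive endoderm markers, against 202.2 to 206.5 on day 0. Gata6 and Sox7 were not detected there, and Sox17 and Foxa2 were not among the tested probes. The 3 measured of 4 neuroectoderm markers summed to 496.3 to 613.3, against 151.8 to 164.0, and the 2 measured of 8 fibroblast or feeder markers to 409.6 to 447.1, against 153.0 to 228.5. With CsA on day 3 these sums were 318.3 to 334.1, 195.1 to 223.2 and 107.7 to 119.4. Members of the primitive endoderm list differed in direction. The mean log2 level of Dab2 went from 5.56 to 8.38 without CsA and stood at 6.33 on day 3 with it, whereas Gata6 was detected on both arrays of day 3 with CsA (5.94) and on no array of the course without it. Of the 5 measured, 1 rose and 1 fell on day 3 without CsA, and 3 rose and none fell with it. In ideltaCnAES cells the sums of these 3 lists were 181.5 to 190.9, 300.4 to 358.2 and 78.73 to 80.65 before induction. On day 4 of deltaCnA induction they were 202.7 to 214.4, 131.2 to 194.2 and 76.83 to 102.9. Of the 3 measured neuroectoderm markers 1 fell and none rose by then. The mean log2 level of Pax6 went from 7.88 to 6.23. Of 4 measured trophectoderm markers 1 rose and 1 fell on day 3 without LIF, and of 3 mesoderm markers 1 fell. These 2 lists summed higher with CsA on day 3. Trophectoderm markers summed to 2597.3 to 3786.3 with CsA and 963.7 to 1123.6 without, and mesoderm markers to 327.9 to 342.1 and 240.1 to 254.2. With CsA against none on day 3, 1 trophectoderm marker was higher and 1 lower, and 1 mesoderm marker was higher and none lower. The part of these markers in the day 3 results below was not tested, and in such bulk RNA a change in the cells present and a change of RNA per cell cannot be told apart.

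Igf2 rose on day 3 without LIF and on both later days of deltaCnA induction, and no rise was called when CsA was present. On the normalized log2 scale its level was 7.61 and 7.57 on day 0, 7.36 and 7.68 on day 1, and 8.90 and 9.65 on day 3 without LIF. Both day 3 arrays lay above all arrays of days 0 and 1. With CsA the levels were 7.41 and 7.24 on day 0, 7.17 and 7.17 on day 1, and 7.30 and 7.56 on day 3, and the first and last groups overlapped. In the ideltaCnAES cells Igf2 stood at 8.32 and 7.73 before induction, 10.08 and 9.48 on day 1, and 11.06 and 10.50 on day 4. These 3 groups did not overlap.

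The rise of Igf2 on day 3 without LIF was 1.68 ± 0.23 on the log2 scale (SE), or 3.21-fold (limma, Benjamini-Hochberg adjusted p = 4e-06). With CsA the change over the same time was 0.11 ± 0.23 (adjusted p = 0.791), and the day 3 level with CsA was lower than without by 3.59-fold (log2 -1.84, adjusted p = 1.56e-06). The difference between the 2 changes, the interaction of CsA with day, was -1.57 ± 0.33 (adjusted p = 0.00229). On deltaCnA induction Igf2 rose by 1.76 ± 0.23 on day 1 (3.39-fold, adjusted p = 7.6e-05) and by 2.75 ± 0.23 on day 4 (6.74-fold, adjusted p = 1.1e-07). Among the 10980 genes tested, each by its brightest probe, the day 1 change was the highest but 7 (rank 8) and the day 4 change the highest of all (rank 1). On day 1 without LIF, Igf2 had changed by -0.07, and this effect lay 1.83 ± 0.33 below that of 1 day of deltaCnA (adjusted p = 0.000953). All of these calls held under every alternative run.

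**Figure D1:**
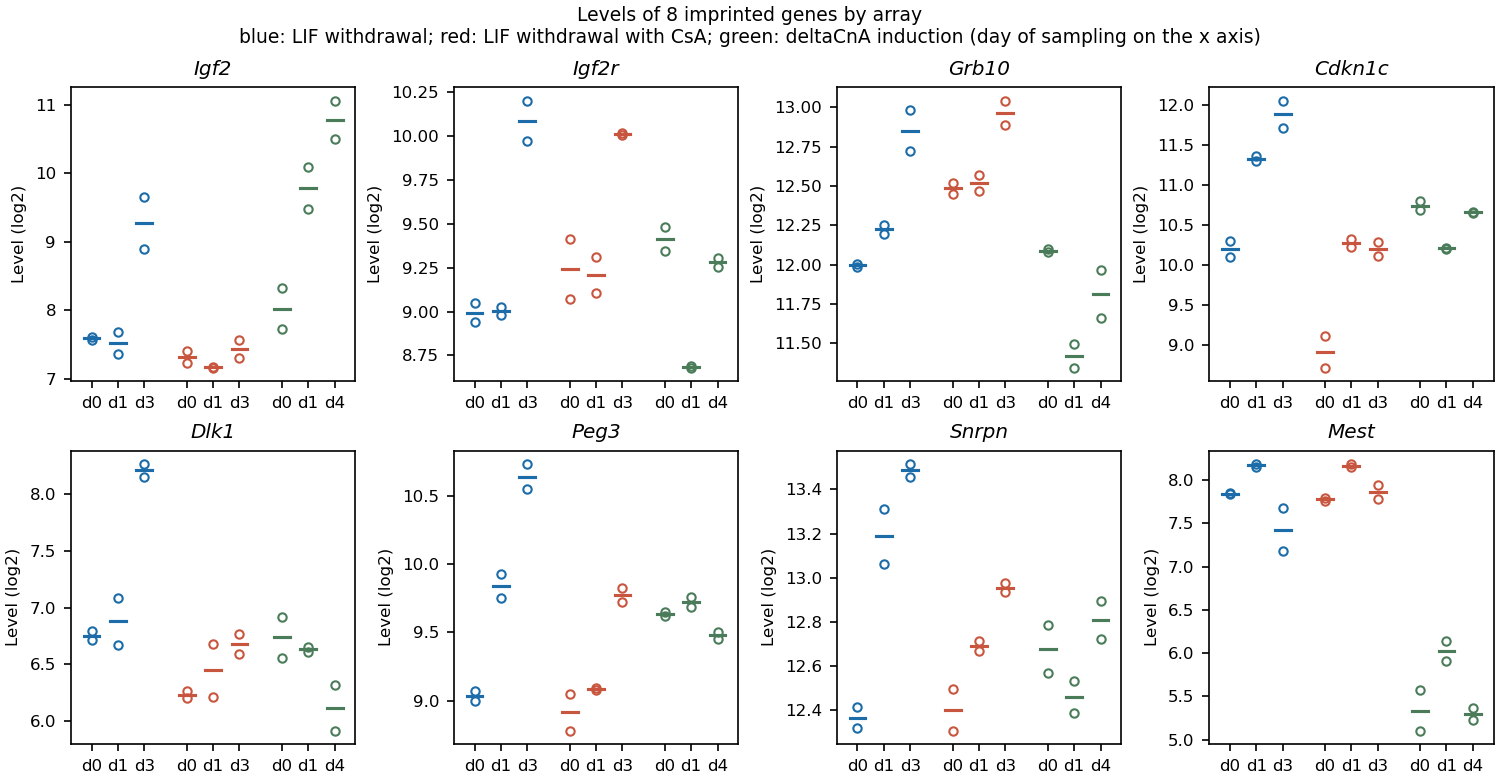
Normalized log2 level of the brightest probe of 8 imprinted genes, with 1 circle per array and a bar at the mean of the 2 arrays of a group; d0, d1, d3 and d4 are days and the y axis differs between panels. Igf2 reaches 8.90 and 9.65 on day 3 without LIF and 10.50 to 11.06 on day 4 of deltaCnA induction, and stays between 7.17 and 7.56 in the CsA course.

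In order of level, Igf2 was highest on day 4 and then day 1 of deltaCnA induction, followed by day 3 without LIF and the uninduced ideltaCnAES cells. The arrays of deltaCnA day 1 and LIF day 3 overlapped. The 5 groups below, all CGR8, lay between 7.17 and 7.68, and the uninduced ideltaCnAES cells did not differ from untreated CGR8 cells at day 0 by the test (0.43 ± 0.23, adjusted p = 0.235).

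By their brightest probes, the receptor and the adaptor of this pathway rose without LIF with or without CsA and fell on 1 day of deltaCnA. Igf2r stood at 9.05 and 8.94 on day 0, 9.03 and 8.98 on day 1 and 9.97 and 10.20 on day 3 without LIF. In the CsA course the levels were 9.41 and 9.07, then 9.31 and 9.11, then 10.003 and 10.02. Both courses ended well above their start, at levels that overlapped on day 3. With deltaCnA Igf2r went from 9.34 and 9.48 to 8.68 and 8.69 on day 1 and was back at 9.31 and 9.25 on day 4. The day 3 rises were 1.09 ± 0.13 without CsA (adjusted p = 4.47e-07) and 0.77 ± 0.13 with it (adjusted p = 0.000115), and their difference was not called (-0.33 ± 0.18, adjusted p = 0.301). The drop on day 1 of deltaCnA was -0.73 ± 0.13 (adjusted p = 0.0012), and the day 4 change was -0.13 ± 0.13 (adjusted p = 0.765).

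Igf2r was also higher in uninduced ideltaCnAES than in CGR8 cells, by 0.42 ± 0.13 (adjusted p = 0.0309). That call was lost under 7 of 14 alternatives, among them leaving out any 1 of the 4 arrays, with adjusted p of 0.0533 and 0.176 without LIF day 0 replicates 1 and 2, and 0.0555 and 0.231 without deltaCnA day 0 replicates 1 and 2. On day 1 the effect of LIF removal lay above that of deltaCnA by 0.74 ± 0.18 (adjusted p = 0.0129). This was lost without LIF day 0 replicate 2 (0.0569), LIF day 1 replicate 1 (0.0579) or deltaCnA day 0 replicate 2 (0.0714).

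Grb10 encodes an adaptor that binds the insulin and IGF1 receptors and restrains their signalling. Its brightest probe, ILMN_1238905, read 12.01 and 11.99 on day 0, 12.19 and 12.26 on day 1 and 12.98 and 12.72 on day 3 without LIF. With CsA it read 12.45 and 12.52, 12.47 and 12.57, and 12.89 and 13.04. The CsA course started higher and ended at an overlapping level. On deltaCnA induction it fell from 12.10 and 12.08 to 11.35 and 11.49 on day 1, and stood at 11.66 and 11.96 on day 4. The changes were 0.85 ± 0.11 on day 3 without CsA (adjusted p = 2.06e-06), 0.48 ± 0.11 with CsA (adjusted p = 0.00273) and -0.67 ± 0.11 on day 1 of deltaCnA (adjusted p = 0.000806). The day 4 change was -0.28 ± 0.11 (adjusted p = 0.265). The effect of 1 day without LIF lay above that of 1 day of deltaCnA by 0.90 ± 0.16 (adjusted p = 0.000865).

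At day 0 Grb10 was higher with CsA than without by 0.49 ± 0.11 (adjusted p = 0.00766). This was lost under median scaling (0.11), without LIF day 0 replicate 2 (0.0525) and without CsA day 0 replicate 2 (0.0605). Of the other Grb10 probes, ILMN_1230113 followed the brightest one over the 9 group means (Pearson r = 0.984, a description). It was called on day 3 without LIF (0.78 ± 0.14), at day 0 with CsA (0.60 ± 0.14) and on day 1 of deltaCnA (-0.55 ± 0.14). In the CsA course its mean went from 8.98 on day 0 to 9.28 on day 3, without a call. Its day 0 call was lost without LIF day 0 replicate 2 (adjusted p = 0.111) or CsA day 0 replicate 1 (0.0666) or 2 (0.0549), and its deltaCnA call without deltaCnA day 0 replicate 1 (0.0798) or 2 (0.11) or deltaCnA day 1 replicate 1 (0.15). The remaining Grb10 probes, ILMN_2641843 and ILMN_1257352, were undetected on some arrays and were called in no comparison with all arrays. ILMN_2641843 became called on day 1 of deltaCnA without deltaCnA day 0 replicate 2 (0.0455), and ILMN_1257352 on day 3 with CsA without CsA day 0 replicate 1 (0.023).

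Cdkn1c, which encodes the cyclin-dependent kinase inhibitor p57, rose within a day of LIF removal and was lower with CsA at each time. Without CsA it stood at 10.09 and 10.30 on day 0, 11.36 and 11.30 on day 1 and 11.71 and 12.06 on day 3. With CsA it stood at 8.71 and 9.11, 10.22 and 10.33, and 10.11 and 10.29. On each of the 3 days both CsA arrays lay below both arrays without CsA, and the CsA arrays of days 1 and 3 lay near the untreated day 0 arrays. In ideltaCnAES cells it read 10.69 and 10.80, then 10.22 and 10.20, then 10.67 and 10.65.

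The rises of Cdkn1c without CsA were 1.13 ± 0.13 on day 1 (adjusted p = 3.18e-06) and 1.69 ± 0.13 on day 3 (adjusted p = 5.87e-10). With CsA they were 1.36 ± 0.13 (adjusted p = 6.01e-07) and 1.29 ± 0.13 (adjusted p = 1.82e-07). Neither interaction was called, with 0.23 ± 0.19 on day 1 (adjusted p = 0.949) and -0.40 ± 0.19 on day 3 (adjusted p = 0.2). The level with CsA was below that without by 2.44-fold on day 0 (log2 -1.29, adjusted p = 6.59e-06), 2.08-fold on day 1 (-1.05, 2.68e-05) and 3.21-fold on day 3 (-1.68, 1.47e-09). Among 10980 genes the day 0 difference had rank 22 from the lowest.

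On day 1 of deltaCnA, Cdkn1c changed by -0.54 ± 0.13 (adjusted p = 0.0144), and on day 4 by -0.09 ± 0.13 (adjusted p = 0.882). The day 1 call was lost without deltaCnA day 0 replicate 2 (0.14) or deltaCnA day 1 replicate 1 (0.108) or 2 (0.0549). Uninduced ideltaCnAES cells held more Cdkn1c than CGR8 cells by 0.55 ± 0.13 (adjusted p = 0.007), a call lost without LIF day 0 replicate 1 (0.0737) or deltaCnA day 0 replicate 2 (0.0903). The effects of 1 day without LIF and 1 day of deltaCnA differed by 1.67 ± 0.19 (adjusted p = 3.48e-06), and this held under every alternative run.

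Dlk1 encodes a membrane protein related to the Notch ligands and restrains adipocyte differentiation. Its brightest probe, ILMN_1244618, read 6.71 and 6.79 on day 0, 6.67 and 7.09 on day 1 and 8.15 and 8.26 on day 3 without LIF. With CsA it read 6.26 and 6.21, 6.22 and 6.68, and 6.59 and 6.77. Day 3 without CsA stood above all other groups. The ideltaCnAES arrays read 6.92 and 6.56 before induction, 6.66 and 6.61 on day 1 and 6.32 and 5.92 on day 4.

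The day 3 rise of Dlk1 without LIF was 1.45 ± 0.20 (2.74-fold, adjusted p = 2.96e-06), against 0.45 ± 0.20 with CsA (adjusted p = 0.106). On day 3 the level with CsA was lower by 2.88-fold (log2 -1.52, adjusted p = 2.14e-06). The interaction was -1.01 ± 0.28 (adjusted p = 0.0186) and was lost without LIF day 0 replicate 1 (0.0546), LIF day 3 replicate 2 (0.0717), CsA day 0 replicate 1 (0.0552) or CsA day 3 replicate 1 (0.0869). It was also lost without background correction (0.0556) and in the deposited series matrix values (0.0674).

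The other Dlk1 probe, ILMN_2771738, rose by 2.13 ± 0.19 without CsA (adjusted p = 3.58e-09) and by 1.27 ± 0.19 with it (adjusted p = 2.01e-05), where the brighter probe was not called. Its interaction, -0.85 ± 0.26 (adjusted p = 0.0366), was lost under 11 of 17 alternatives, with adjusted p up to 0.223. On day 4 of deltaCnA it changed by -0.97 ± 0.19 (adjusted p = 0.00412), lost without deltaCnA day 0 replicate 1 (0.0913) or day 4 replicate 2 (0.0802), while the brighter probe changed by -0.62 ± 0.20 (adjusted p = 0.113). The ILMN_2771738 level was also lower with CsA on day 0 (-0.96 ± 0.19, adjusted p = 0.0023) and day 1 (-0.95 ± 0.19, adjusted p = 0.00228). These calls were lost without CsA day 0 replicate 1 (0.0615) and CsA day 1 replicate 1 (0.0569), respectively. On day 1 of deltaCnA it changed by -0.60 ± 0.19 (adjusted p = 0.0498), which was lost under 9 of 13 alternatives, among them leaving out any 1 of the 4 arrays.

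Peg3, a paternally expressed gene for a zinc finger protein, rose on both days without LIF by its brightest probe. Probe ILMN_1245246, its brightest, read 9.07 and 8.999 on day 0, 9.92 and 9.75 on day 1 and 10.55 and 10.73 on day 3. With CsA it read 9.05 and 8.78, 9.09 and 9.08, and 9.72 and 9.82. The 3 groups without CsA were separated from each other, while with CsA day 1 lay just above day 0 and day 3 lay well above both. In ideltaCnAES cells it read 9.65 and 9.62, 9.76 and 9.69, and 9.50 and 9.45.

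The changes of Peg3 without CsA were 0.80 ± 0.12 on day 1 (adjusted p = 8.05e-05) and 1.60 ± 0.12 on day 3 (3.04-fold, adjusted p = 2.45e-10). With CsA they were 0.17 ± 0.12 (adjusted p = 0.657) and 0.86 ± 0.12 (1.81-fold, adjusted p = 1.13e-05). The interaction was called on day 3 (-0.75 ± 0.17, adjusted p = 0.00466) and not on day 1 (-0.63 ± 0.17, adjusted p = 0.426). No deltaCnA change was called (0.09 ± 0.12 on day 1 and -0.16 ± 0.12 on day 4), although uninduced ideltaCnAES cells held more Peg3 than CGR8 cells by 0.60 ± 0.12 (adjusted p = 0.00148). The dimmer probes, ILMN_2677270 and ILMN_1225513, also rose on day 3 without LIF (1.34 ± 0.17 and 1.14 ± 0.18). Neither was called on day 1 without LIF (0.42 and 0.50) or between uninduced ideltaCnAES and CGR8 cells (0.23 and 0.21). The interaction of ILMN_2677270 was -0.50 ± 0.24 without a call, and that of ILMN_1225513, also without a call, rests on a CsA day 0 group in which the probe was not above background. The effect of 1 day without LIF on ILMN_1245246 lay above that of deltaCnA by 0.71 ± 0.17 (adjusted p = 0.00963), a call lost without LIF day 1 replicate 1 (0.0685). ILMN_2677270 was not called in that comparison of day 1 effects. Its mean level went from 6.81 to 7.23 without LIF and from 7.04 to 7.33 with deltaCnA. With CsA, ILMN_1225513 was undetected on both day 0 arrays, and its day 3 level was at least 1.39-fold higher (adjusted p = 0.0235). That call was lost when any 1 of the 4 arrays was left out (0.0584 to 0.135) and with no detection filter (0.0693). Such a bound sets the brighter group against the lowest signal of any detected probe on each array, where the dim probe lay below it.

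Snrpn encodes a spliceosomal protein. Its brightest probe, ILMN_1247894, read 12.41 and 12.32 on day 0, 13.31 and 13.06 on day 1 and 13.52 and 13.46 on day 3 without LIF. With CsA it read 12.30 and 12.49, 12.71 and 12.66, and 12.93 and 12.97. The day 1 and day 3 groups lay above day 0 in both courses, and those without CsA lay higher. The ideltaCnAES arrays read 12.57 and 12.78, 12.39 and 12.53, and 12.89 and 12.72, and no deltaCnA change of either Snrpn probe was called.

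The changes of Snrpn were 0.82 ± 0.11 and 1.12 ± 0.11 on days 1 and 3 without CsA (adjusted p = 2.13e-05 and 2.33e-08), and 0.29 ± 0.11 and 0.55 ± 0.11 with CsA (adjusted p = 0.217 and 0.000638). The day 3 interaction was -0.57 ± 0.16 (adjusted p = 0.0183). It was lost under median scaling (0.132), without an intensity trend (0.0741), and without LIF day 0 replicate 2 (0.0642), LIF day 3 replicate 1 (0.0637), CsA day 0 replicate 2 (0.104) or CsA day 3 replicate 1 (0.0705). The other probe, ILMN_2748091, gave -0.69 ± 0.19 (adjusted p = 0.0176), lost without LIF day 0 replicate 2 (0.0853), LIF day 3 replicate 1 (0.0849), CsA day 0 replicate 1 (0.0563) or CsA day 3 replicate 1 (0.12). On day 1 the level of ILMN_1247894 with CsA differed from that without by -0.50 ± 0.11 (adjusted p = 0.00569), lost without LIF day 1 replicate 1 (0.111). The other probe rose on day 1 with CsA by 0.60 ± 0.13 (adjusted p = 0.0107), unlike the brighter one, and that call was lost when CsA day 0 replicate 1 or 2 or CsA day 1 replicate 1 was left out (adjusted p up to 0.191). The effect of 1 day without LIF lay above that of deltaCnA by 1.04 ± 0.16 (adjusted p = 0.000141).

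Mest, a paternally expressed gene for a protein of the hydrolase family, read lower on every ideltaCnAES array than on any CGR8 array. Probe ILMN_1253664 read between 7.18 and 8.19 on all 12 CGR8 arrays and between 5.10 and 6.13 on all 6 ideltaCnAES arrays. Without LIF it read 7.83 and 7.84 on day 0, 8.15 and 8.18 on day 1 and 7.18 and 7.67 on day 3, and with CsA 7.76 and 7.79, 8.19 and 8.14, and 7.94 and 7.78. The ideltaCnAES arrays read 5.57 and 5.10, 5.90 and 6.13, and 5.37 and 5.23, and replicate 2 of day 0 was not detected. Before any induction Mest was at least 5.47-fold lower in ideltaCnAES than in CGR8 cells (fitted log2 -2.50 ± 0.18, adjusted p = 2.92e-09), which ranked 5 from the lowest of 10980 genes.

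No change of Mest was called in either LIF course. It was -0.41 ± 0.18 on day 3 without CsA (adjusted p = 0.0872) and became called without LIF day 3 replicate 2 (-0.66, adjusted p = 0.0221). The day 1 rise with deltaCnA was at least 1.55-fold (fitted 0.68 ± 0.18, adjusted p = 0.0215). It was lost without deltaCnA day 0 replicate 2 (0.306) or deltaCnA day 1 replicate 1 (0.076) or 2 (0.13), with an offset of 50 (0.0769) and with the compared groups alone (0.0728).

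Over the genes, each by its brightest probe, 7 of 8 rose and none fell on day 3 without LIF, where 18.1% of all 10980 genes rose and 19.2% fell. The median change of the 8 was 1.29, against -0.05 over all genes. On day 1, Cdkn1c, Peg3 and Snrpn rose and none fell, against 3.48% of all genes rising and 4.37% falling. With CsA, 5 of 8 rose and none fell on day 3, against 14.4% of all genes rising and 14.2% falling, with a median of 0.52 against -0.01. On day 1 with CsA Cdkn1c alone was called by its brightest probe, against 2.05% of genes rising and 2.01% falling. Igf2 and Dlk1 were the genes called by their brightest probe on day 3 without CsA and not with it. Counted by probe, 4 and 12 of the 15 were called on days 1 and 3 without CsA, where 6.15% and 32.9% of all probes were, and 2 and 9 with CsA, where 3.08% and 24.8% were.

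**Figure D2:**
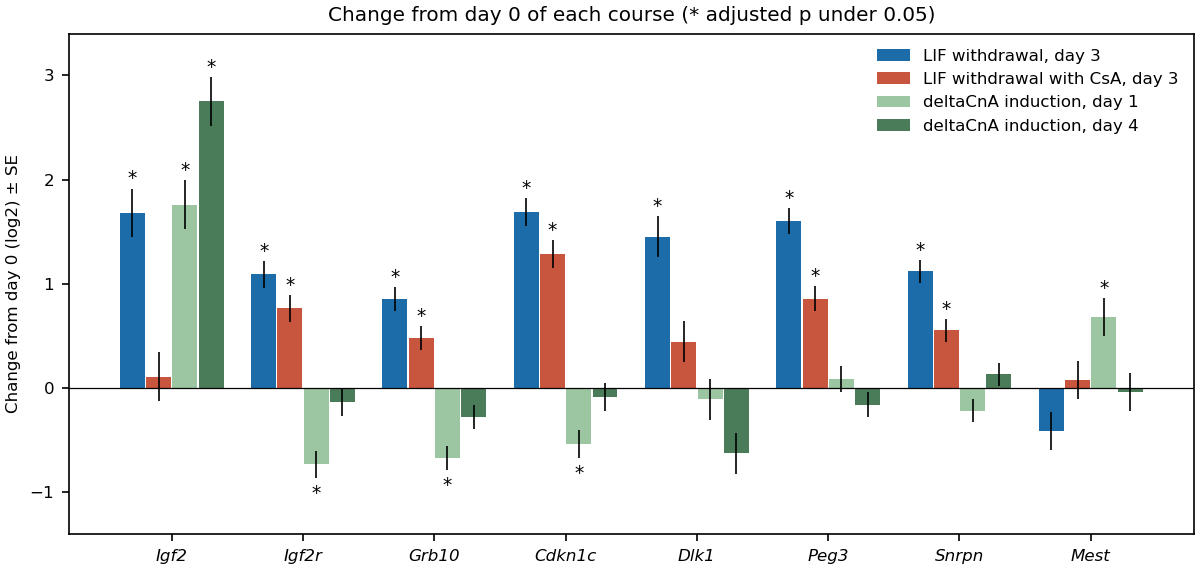
Log2 change from day 0 of the same course, with its SE from the fit as error bars, for the brightest probe of each gene; an asterisk marks an adjusted p under 0.05. Igf2 shows the highest bar of deltaCnA induction, 2.75 on day 4, and almost no change with CsA (0.11), whereas Igf2r, Grb10 and Cdkn1c lie below 0 on day 1 of deltaCnA.

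With CsA, set against the same day without it, Grb10 was higher and Cdkn1c lower on day 0, where 5.56% of all genes were higher and 6.22% lower. On day 1, Cdkn1c, Peg3 and Snrpn were lower and none higher, where 5.05% of genes were higher and 4.79% lower. On day 3, Igf2, Cdkn1c, Dlk1, Peg3 and Snrpn were lower and none higher, where 18.7% of genes were higher and 18.8% lower. By probe, 4, 5 and 9 of 15 differed on days 0, 1 and 3, where 9.77%, 8.24% and 32.5% of all probes did. The interaction was called for none of the 8 on day 1, where 0.0182% of genes had a higher and 0.0546% a lower change with CsA, and 0.0599% of all 21691 probes were called in limma. At an unadjusted p under 0.05 that day had 3 of the 15 member probes and 1229 of all probes, and no alternative setting called a member. On day 3 Igf2, Dlk1, Peg3 and Snrpn had a lower change with CsA, where 6.87% of genes had a lower and 7.48% a higher one, and Igf2r, Cdkn1c, Grb10 and Mest were not called. By probe this was 6 of 15, where 11.8% of all probes were called.

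**Figure D3:**
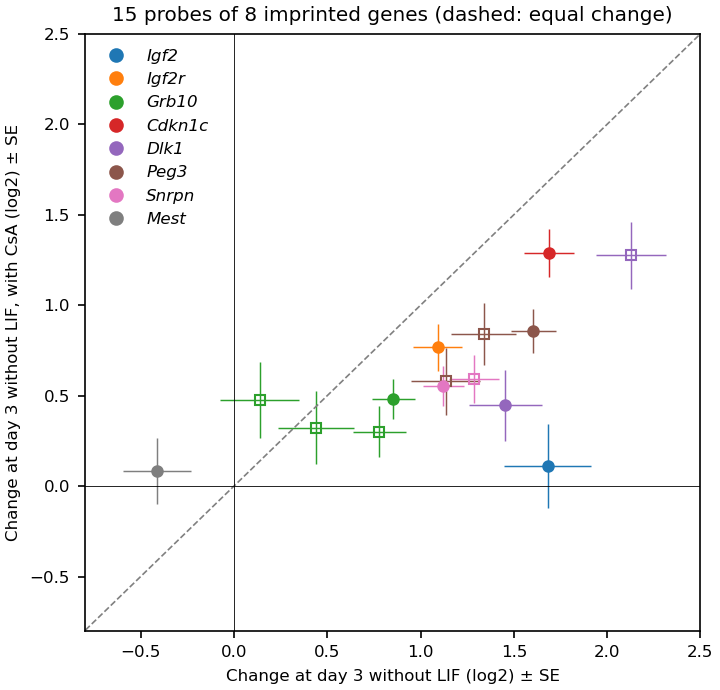
Log2 change from day 0 to day 3 after LIF removal without CsA (x axis) and with CsA (y axis) for the 15 tested probes, with SE bars; filled circles are the brightest probe of a gene, open squares its other probes and the dashed line marks equal change. All probes but Mest and 1 dim Grb10 probe lie below the line, and Igf2 lies farthest below it (1.68 against 0.11).

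On deltaCnA induction the genes changed in both directions. On day 1 Igf2 and Mest rose and Igf2r, Cdkn1c and Grb10 fell, where 5.93% of all genes rose and 4.17% fell. On day 4 Igf2 alone was called among the brightest probes, where 2.35% of genes rose and 0.665% fell, and the dimmer Dlk1 probe was called too. By probe, 7 of 15 were called on day 1 and 2 on day 4, where 8.34% and 2.28% of all probes were. Uninduced ideltaCnAES cells held more Igf2r, Cdkn1c and Peg3 and less Mest than CGR8 cells, where 6.44% of genes were higher and 10.4% lower. By brightest probe, the effect of 1 day without LIF lay above that of 1 day of deltaCnA for Igf2r, Cdkn1c, Peg3, Snrpn and Grb10. It lay below that of deltaCnA for Igf2. Of all genes 3.93% lay above and 6.28% below. By probe, 3 of 15 were higher and 1 lower in uninduced ideltaCnAES cells, where 6.86% and 8.18% of all probes were, and 9 differed in the effects of LIF loss and deltaCnA, where 8.13% did. The LIF and deltaCnA courses were compared on day 1 alone, since their last days differ. At day 0 the ideltaCnAES and CGR8 groups differ in line and in the presence of Tc, and the lowest intensity per array was -57.95 to -47.00 on the 6 deltaCnA arrays against -29.37 to -23.71 on the others. Line, Tc and whatever set the arrays apart cannot be told apart there. No group had Tc removed without deltaCnA, and none kept Tc to a later day. On the later days deltaCnA, Tc removal and time in culture therefore cannot be told apart either. Probes of Ppp3ca, the gene of the calcineurin A alpha subunit, were not called on deltaCnA induction, and neither was any of the probes of Rcan1, a gene that calcineurin and NFAT are known to induce. The Rcan1 changes on day 1 were -0.20 ± 0.13, -0.25 ± 0.18 and 0.62 ± 0.21 (adjusted p = 0.416, 0.462 and 0.069). A probe of Ppp3cc, the gene of another catalytic subunit, was lower on day 1 (-0.87 ± 0.22, adjusted p = 0.0146). Another Ppp3cc probe was not called then (-0.24 ± 0.19, adjusted p = 0.519), and neither probe was called on day 4. For Ppp3ca no source used here says whether a probe can read the transgene.

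The genes whose 9 group means were most like those of a member by Pearson correlation were searched among probes with a range of at least 1 log2 unit. For Igf2 they were Gng3 (r = 0.964), Slc27a3 (0.933) and Trib1 (0.925). For Cdkn1c they were Foxo1 (0.978), Zcchc18 (0.956) and Lpar4 (0.936), and for Mest Meis2 (0.988), Fmr1nb (0.974) and Tmem40 (0.974). Dlk1 was matched most by Vwa2 (0.979) and Peg3 by Fign (0.956). These values describe 9 points that share arrays and scaling.

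Other imprinted genes moved in both directions. Of 55 listed, 46 had a probe and 32 were tested; on day 3 without LIF 11 rose and 3 fell, where 18.1% of all genes rose and 19.2% fell, with a median change of 0.19 against -0.05 over all genes. Atp10a, a phospholipid flippase subunit gene, rose by 2.82 ± 0.18 and Gnas, which encodes the stimulatory G protein alpha subunit, by 2.19 ± 0.15. Cobl, an actin nucleator gene, fell by 2.33 on the log2 scale and Ddc, the gene of aromatic L-amino acid decarboxylase, by 1.65. With CsA 5 rose and 4 fell, where 14.4% and 14.2% of all genes did. At day 0, 6 of the 32 were higher with CsA than without and 2 lower, where 5.56% and 6.22% of all genes were. How that count depends on single arrays is given at the end. The day 3 interaction was called for 7 of the 32, 2 of them above 0 and 5 below, where 7.48% and 6.87% of all genes were, and for 4 without LIF day 3 replicate 1 or without CsA day 3 replicate 1. It was 1.97 ± 0.17 for Cobl, which changed by -0.36 with CsA. Ndn, the gene of the necdin growth suppressor, rose by 1.43 ± 0.20 without CsA and had 0.18 ± 0.20 with it, an interaction of -1.24 ± 0.28 (limma, adjusted p = 0.00378). Rian, a noncoding RNA of the Dlk1 and Meg3 cluster, had 1.10 ± 0.19 and 0.05 ± 0.19, an interaction of -1.05 ± 0.27 (adjusted p = 0.0127). The Rian call was lost without LIF day 0 replicate 2 (0.0698), LIF day 3 replicate 1 (0.103), CsA day 0 replicate 1 (0.0636) or CsA day 3 replicate 1 (0.104). On day 4 of deltaCnA 2 rose and 2 fell, where 2.35% and 0.665% of all genes did. Ddc rose by 1.24 ± 0.13 and Ppp1r9a by 0.81 ± 0.14, while Phlda2, a growth-restraining gene of the placenta, fell by 1.11 and Atp10a by 1.05. The Atp10a call was lost without deltaCnA day 4 replicate 1 (adjusted p = 0.0534).

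Among 16 listed IGF signalling genes 14 had a probe and 13 were tested. Without LIF 8 of the 13 had risen and 2 had fallen on day 3, where 18.1% and 19.2% of all genes had, with a median change of 0.53. Irs1, the insulin receptor substrate, rose by 3.13 ± 0.17 and the receptor gene Igf1r, named here after its values were seen, by 1.39 ± 0.15. The binding protein genes Igfbp3 and Igfbp4 rose by 2.96 ± 0.21 and 1.64 ± 0.23, whereas Igfbp7 fell by 2.74. With CsA 6 rose and 2 fell, where 14.4% and 14.2% of all genes did, with a median change of 0.62. Irs1 stood at 1.33 ± 0.17, Igf1r at 1.13 ± 0.15 and Igfbp4 at 0.25 ± 0.23 (adjusted p = 0.482). On day 3, 4 of the 13 were higher with CsA than without and 6 lower, where 18.7% and 18.8% of all genes were. The median of these differences was -0.33. The interaction was called for 5 of the 13 genes, 1 above 0 and 4 below, where 7.48% and 6.87% of all genes were. It was above 0 for Igfbp2 (0.75 ± 0.15, adjusted p = 0.00154). It was below 0 for Irs1 (-1.80 ± 0.24, adjusted p = 1.47e-05), Igfbp3 (-1.69 ± 0.30, adjusted p = 0.000484), Igfbp4 and Igf2bp1. For Igfbp4 it was -1.39 ± 0.32 (adjusted p = 0.00513) and was lost without background correction (0.0594) and in the series matrix values (0.0674). Igfbp3 and Igfbp4 were each detected on 1 of the 2 CsA day 0 arrays. On day 4 of deltaCnA 3 rose and none fell, where 2.35% and 0.665% of all genes did. Igfbp4 rose by 1.00 ± 0.23 (adjusted p = 0.0159), Igfbp7 by 0.91 ± 0.17 (adjusted p = 0.00335) and Igfbp2 by 0.64 ± 0.11 (adjusted p = 0.00116). Without deltaCnA day 4 replicate 1 all of these calls were lost (0.274, 0.171 and 0.09), and without deltaCnA day 0 replicate 2 those of Igfbp4 (0.165) and Igfbp7 (0.0663). The Igfbp4 call was also lost without deltaCnA day 0 replicate 1 (0.0696).

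The genes listed for imprint maintenance mostly fell on day 3 without LIF. The list mixes roles, since it also holds genes such as Tet2 and Dnmt3b that act on DNA methylation in other ways. Of 16 listed, 13 had a probe and 11 were tested; on day 3 without LIF 7 fell and 1 rose, where 19.2% of all genes fell and 18.1% rose, and with CsA 6 fell and 1 rose, where 14.2% fell and 14.4% rose. Zfp57, a zinc finger protein that keeps methylation at imprinted regions, fell by 2.42 on the log2 scale, and Tet2, which oxidizes methylated cytosine, by 2.70. With CsA the same genes fell by 1.04 and 1.33, interactions of 1.39 ± 0.26 for Zfp57 (limma, adjusted p = 0.000733) and 1.37 ± 0.21 for Tet2 (adjusted p = 7.29e-05). The interaction was called for 3 of the 11 genes, all above 0, where 7.48% of all genes were above 0 and 6.87% below. Dppa3, which protects the maternal genome of the zygote from demethylation, was the other gene with a called interaction (1.16 ± 0.31, adjusted p = 0.0164), lost without LIF day 0 replicate 1 (0.0518), LIF day 3 replicate 2 (0.0979), CsA day 0 replicate 2 (0.0688) or CsA day 3 replicate 1 (0.0988). Dnmt3b, a de novo DNA methyltransferase, rose by 0.98 ± 0.15 without CsA and by 0.47 ± 0.15 with it (adjusted p = 0.0265), the latter lost without CsA day 0 replicate 1 (0.168) or CsA day 3 replicate 2 (0.727). On day 4 of deltaCnA none of the 11 was called, where 2.35% of all genes rose and 0.665% fell.

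**Figure D4:**
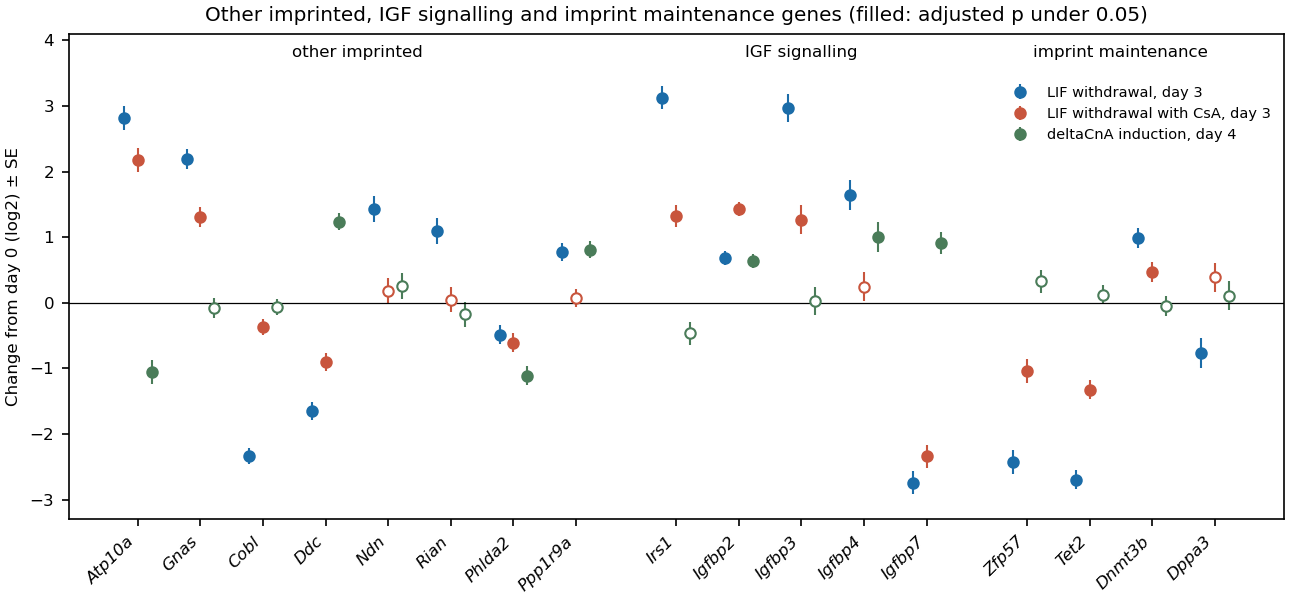
Log2 change from day 0 with its SE for the named other imprinted, IGF signalling and imprint maintenance genes on day 3 without LIF, on day 3 without LIF with CsA and on day 4 of deltaCnA induction; filled points have an adjusted p under 0.05. Without LIF Irs1 stands at 3.13 and Tet2 at -2.70, and the CsA point lies nearer 0 than the point without CsA for every gene shown but Igfbp2 and Phlda2.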

How the data were processed

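Each probe has an intensity, which the authors deposited linear and not normalized per the file headers, and a detection p-value that the authors deposited beside it. Values below 0 show that a background had been subtracted. The authors' series matrix holds intensities too, also linear, scaled between arrays by a step that is not stated, with 1 array's column equal in both tables. It served as an alternative (log2 with a floor of 1). Per the labels' protocols, Trizol was used for RNA and an Ambion MessageAmp kit for biotinylated cRNA. Which scanner software was used is not stated. Mean intensity was 286.9 to 484 per array, and 40.43% to 44.07% of probes had a detection p under 0.05. The lowest intensity was -57.95 to -47.00 on the deltaCnA arrays and -29.37 to -23.71 on the others.

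The intensities were corrected with normexp from the detection p-values (nec, offset 16), quantile normalized over all 46632 probes and put on the log2 scale with limma 3.58.1 in R 4.3.3. The 21691 probes for which some group had a detection p under 0.05 on both of its arrays were fitted to the 9 group means (9 residual degrees of freedom), with an intensity trend in the variance prior. Adjusted p-values are Benjamini-Hochberg over all these probes in each of 13 comparisons, and a probe was called under 0.05. Only 2 arrays per group limit the precision. Probe names came from the platform annotation, which gave 29976 probes 1 gene, 10 several and 16646 none. Gene symbols were matched to RefSeq through gene IDs, and promoter windows were read from RefSeq on GRCm38.p6. Genes with several probes are represented by the brightest tested probe, and their other probes are named beside it.

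All tested probes of the members are named. Of the other lists, at most the 4 called genes with the largest absolute change in a comparison are named, except where the text says otherwise, and like genes are the 3 with the highest correlation. The members and lists were chosen with earlier results of these data known. The fit was tested on simulated data. Replicate numbers were not used to pair the arrays in the main fit. Over 36 pairs of groups the correlation of their deviations was -0.197 to 0.336, with a median of 0.056, and 17 exceeded 0.1. These values do not settle whether arrays of the same number were handled together. Alternatives changed the background correction, offset, scaling, detection filter, table, variance prior, groups in the fit, replicate block and arrays left out.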

Additional observations from a re-analysis of the deposited data

Results flagged for a closer look

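The following differences between effects passed the test of the difference itself (limma, adjusted p under 0.05). The change from day 0 to day 3 after LIF removal was lower with CsA than without for Igf2 (-1.57), the Dlk1 probes ILMN_1244618 (-1.01) and ILMN_2771738 (-0.85), Peg3 probe ILMN_1245246 (-0.75) and the Snrpn probes ILMN_1247894 (-0.57) and ILMN_2748091 (-0.69), all as log2 differences. The change on day 1 without LIF was lower than that on day 1 of deltaCnA for Igf2 (-1.83). It was higher for Igf2r (0.74), Cdkn1c (1.67), the Peg3 probes ILMN_1245246 (0.71) and ILMN_1225513 (0.94), the Snrpn probes ILMN_1247894 (1.04) and ILMN_2748091 (0.88), and the Grb10 probes ILMN_1238905 (0.90) and ILMN_1230113 (0.70). Peg3 ILMN_1225513 was not above background on either deltaCnA day 1 array, so its 0.94 is a fitted difference and not a measured size. The remaining Peg3 probe, ILMN_2677270, was detected on all 18 arrays and was not called. With all arrays but 1, the calls of Peg3 ILMN_1225513 and Grb10 ILMN_1230113 were lost in turn for LIF day 0 replicate 2, LIF day 1 replicate 1, deltaCnA day 0 replicates 1 and 2 and deltaCnA day 1 replicate 1 (adjusted p = 0.0508 to 0.13 and 0.071 to 0.159), and that of Peg3 ILMN_1225513 also for deltaCnA day 1 replicate 2 (0.0535). Both calls were lost with no detection filter (0.0769 and 0.0607), and that of Grb10 ILMN_1230113 with the compared groups alone (0.0671).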

How the results depend on the processing

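Of the 73 calls over the 15 probes and 13 comparisons, 50 held under every alternative run and 23 were lost under at least 1, 10 of them under an alternative other than leaving out an array. Over 2819 values no call reversed in sign, 96 values lost their call and 9 gained one. Changes of sign in values without a call were not counted as reversals. Leaving out single arrays moved the number of probes called from 2 to between 1 and 2 on day 1 with CsA, from 4 to between 2 and 4 for CsA against none on day 0, and from 5 to between 3 and 4 on day 1. The day 3 interaction went from 6 to between 2 and 7, deltaCnA day 1 from 7 to between 3 and 5, deltaCnA day 4 from 2 to between 1 and 2, the line comparison from 4 to between 2 and 4, and LIF loss minus deltaCnA from 9 to between 5 and 9. With the replicate number as a block (replicate block) the counts were those without it, 4 and 12 in the LIF course, 2 and 9 with CsA, 4, 5 and 9 for CsA against none, 0 and 6 for the interactions, 7 and 2 for deltaCnA, 4 for the line and 9 for the LIF and deltaCnA difference. The share of higher among called probes for CsA against none on day 0 was 50.6% after quantile normalization and 39.9% after median scaling, on day 1 51.1% and 41.4%, and for the day 1 interaction 23.1% and 33.3%. Other settings moved the day 3 interaction from 6 probes to 4 without background correction, with median scaling or with the series matrix values, and offset 50 or the compared groups alone moved the 7 of deltaCnA day 1 to 5. Without CsA day 0 replicate 2 the 8 other imprinted genes called for CsA against none on day 0 became 1. Median scaling called Grb10 ILMN_2641843 on day 3 without LIF (adjusted p = 0.0464). The slide as a block was not run, because the files give no slide. Causes of these differences were not tested.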
